A study of Mus musculus with 12 samples.

Results

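The interleukin-6 (IL-6) cytokine family was examined through 10 mouse genes, namely the ligand genes *Il6*, *Lif* and *Clcf1*, the receptor genes *Il6st*, *Il6ra*, *Lifr*, *Osmr* and *Cntfr*, the transcription factor gene *Stat3* and the feedback inhibitor gene *Socs3*. The genes were taken by symbol, through the NCBI Gene IDs of the count table. No measured value enters this rule, but the genes were chosen with earlier results of these data known. All 10 were found among the 27179 genes listed, and 9 of them were among the 15502 genes that passed the expression filter. RNA-seq counts came from 12 tibialis anterior (TA) muscles of male wild-type C57BL/6N mice, which were 6 to 8 weeks old when obtained and were used within 2 weeks. Of these, 6 Control muscles had received 10 μg of empty pcDNA3 plasmid. The 6 *FRAIL1* muscles, in the opposite leg of the same mice, had received 10 μg of plasmid carrying the full human *FRAIL1* lncRNA behind the cytomegalovirus promoter, which is active in many cell types, and all were taken at day 7. Both groups share hyaluronidase treatment, plasmid injection and electroporation, and there was no muscle without them. *FRAIL1* is not among the mouse genes counted, so its level was not measured here.

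Most cytokines of this family bind receptor complexes that contain the shared signal-transducing chain gp130, encoded by *Il6st*. IL-6 first binds its own receptor, encoded by *Il6ra*, whereas leukemia inhibitory factor (*Lif*) and cardiotrophin-like cytokine factor 1 (*Clcf1*) signal through a pair of gp130 and the LIF receptor (*Lifr*), the latter ligand with the help of the CNTF receptor alpha chain (*Cntfr*). Janus kinases bound to these chains activate STAT3, and STAT3 induces *Socs3*, whose product shuts gp130 signaling down. In skeletal muscle the family is known for its release on contraction and injury, for acting on satellite cells and for its part in muscle wasting.

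Total counts per muscle ranged from 44848322 to 60527385. The tissue was muscle by its markers, since the summed level of 10 genes of skeletal muscle fibers lay between 142250 and 221360 CPM (counts scaled to a common library size) in every muscle. *FRAIL1* muscle 5 stood apart from the rest, at 61.5 on the first principal component of log2 CPM, where the next *FRAIL1* muscle was at 26.8 and the Control muscles lay between -27.3 and -11.3. The log2 fold changes of *Clcf1*, *Lifr*, *Jak2* and *Timp1* and the correlations between genes are also given without it. CPM values below are scaled with edgeR's TMM factors, and differences are log2 fold changes of *FRAIL1* minus Control.

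Of the 9 IL-6 family genes tested, *Clcf1* was higher and *Lifr* was lower in *FRAIL1* muscles past the threshold of 0.05 on adjusted p-values. Over all 15502 genes, 6.28% passed it, 4.43% as higher and 1.85% as lower. An unadjusted p-value under 0.05 was reached by 5 of the 9 genes, against 27.7% of all genes. The log2 fold change was above 0 for 3 of the 9 and below 0 for 6, with a median of -0.19, beside a median of 0.0096 over all genes tested. In bulk tissue, fewer cells of a type and less RNA per cell cannot be told apart.

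**Figure D1:**
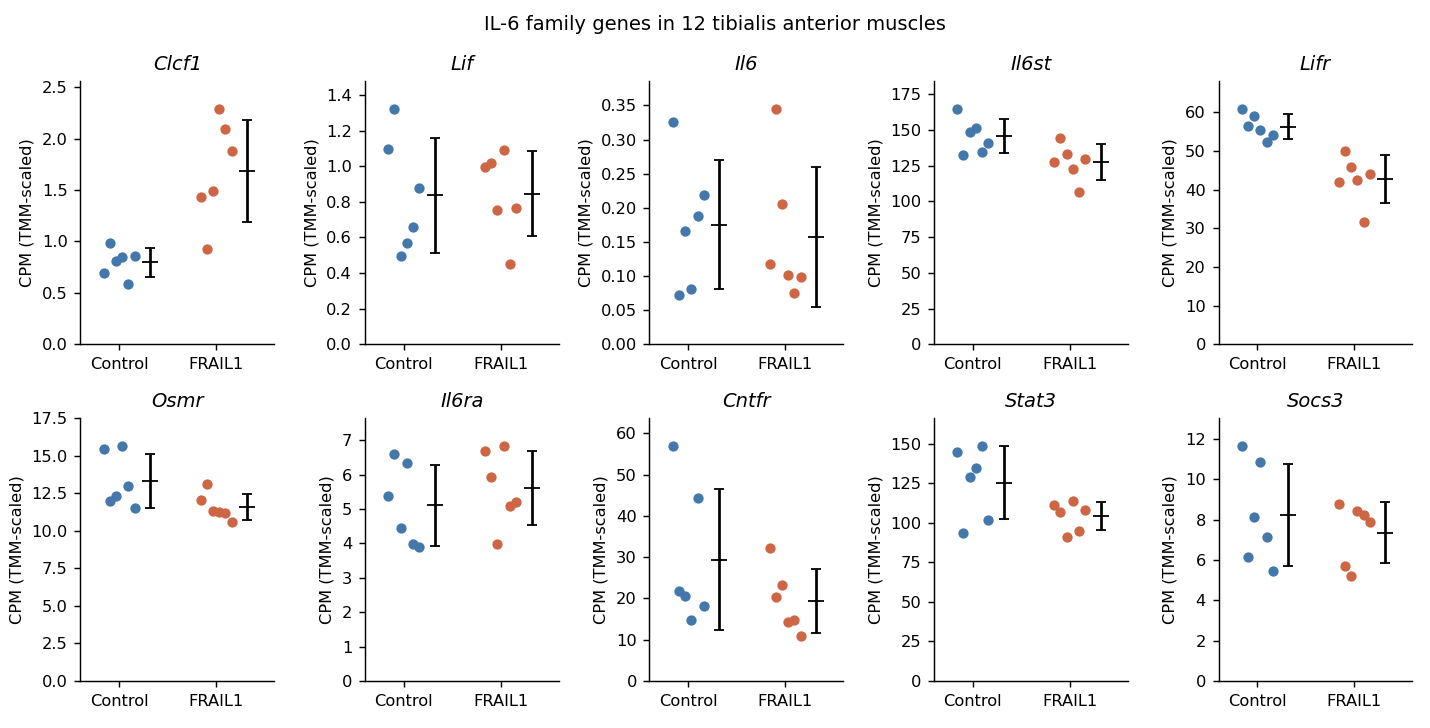
Level of each of the 10 IL-6 family genes in CPM, on a linear axis from 0, in 6 Control (blue) and 6 *FRAIL1* (orange) muscles. Points are muscles in the order of their numbers, and the bar beside them is the mean with its SD. *Lifr* is the gene whose groups are apart, *Clcf1* was above every Control muscle in 5 of 6 *FRAIL1* muscles, and the other genes overlap.

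Among the ligands, *Clcf1* (Gene ID 56708; chromosome 19 of GRCm38, 4214238 to 4223505) was the gene that differed. CLCF1 is a secreted ligand of the CNTF receptor complex. In Control muscles 1 to 6 the level of *Clcf1* was 0.692, 0.982, 0.807, 0.853, 0.588 and 0.856 CPM, and in *FRAIL1* muscles 1 to 6 it was 1.43, 0.930, 1.49, 2.29, 2.09 and 1.88 CPM. The values of 5 *FRAIL1* muscles lay above every Control muscle, and *FRAIL1* muscle 2 lay within the Control range. The mean rose from 0.796 ± 0.138 CPM (SD, n = 6) to 1.69 ± 0.498 CPM (SD, n = 6), a 2.10-fold difference. The log2 fold change was 1.07 (standard error 0.220, 95% interval 0.605 to 1.54), and the quasi-likelihood test of edgeR gave an adjusted p = 0.0151 after Benjamini-Hochberg correction. Without *FRAIL1* muscle 5 the log2 fold change was 0.997 (adjusted p = 0.0177, edgeR). The levels rest on 25 to 113 reads per muscle. A neighboring gene model on the same strand, AC109138.7, overlaps 8.17% of the exon bases of *Clcf1*. How reads from this stretch were counted is not given in the sources used here.

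*Lif*, which acts on satellite cells and motor neurons, was low in both groups, with 24 to 74 reads per muscle. It ranged from 0.497 to 1.32 CPM in Control muscles (median 0.768) and from 0.449 to 1.09 CPM in *FRAIL1* muscles (median 0.881). The groups overlapped almost whole, and the log2 fold change was 0.0084 (95% interval -0.59 to 0.60; adjusted p = 0.988, edgeR), an interval that leaves room for a change as large as that of *Lifr* in either direction.

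*Il6*, the founding member and a cytokine released by working muscle, did not pass the expression filter, with 4 to 20 reads per muscle. In Control muscles 1 to 6 it measured 0.326, 0.0714, 0.166, 0.0812, 0.188 and 0.219 CPM, and in *FRAIL1* muscles 1 to 6 it measured 0.117, 0.344, 0.206, 0.101, 0.0748 and 0.0980 CPM. The highest value of each group was far above its lowest. The means were 0.175 and 0.157 CPM, and the difference of -0.018 CPM was within the spread between muscles (two-sided exact permutation test over all splits of 6 against 6, p = 0.727, where the smallest p the design allows is 0.0022). The test found no difference in *Il6* beyond the spread between muscles, at 4 to 20 reads per muscle.

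Among the receptors, *Lifr* (Gene ID 16880; chromosome 15 of GRCm38, 7090610 to 7197489) was lower in *FRAIL1* muscles. Its product pairs with gp130 to receive LIF, CLCF1, CNTF and cardiotrophin-1. It measured 60.8, 56.4, 59.2, 55.3, 52.2 and 54.1 CPM in Control muscles 1 to 6. In *FRAIL1* muscles 1 to 6 it measured 42.1, 50.1, 45.8, 42.5, 31.7 and 44.2 CPM. Every *FRAIL1* value lay below every Control value, a separation seen in either direction in 4.88% of all genes tested, and *FRAIL1* muscle 5 was lowest. The means were 56.3 ± 3.19 and 42.7 ± 6.13 CPM (SD, n = 6 each), a ratio of 0.758. The log2 fold change was -0.40 (standard error 0.0865, 95% interval -0.58 to -0.22), and the quasi-likelihood test of edgeR gave an adjusted p = 0.0192 after Benjamini-Hochberg correction. Without *FRAIL1* muscle 5 it was -0.33, with an adjusted p = 0.00487 by the same test. These levels rest on 1695 to 3161 reads per muscle.

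*Il6st*, the gp130 gene, ranged from 133 to 165 CPM in Control muscles (median 145) and from 106 to 145 CPM in *FRAIL1* muscles (median 129). Of the *FRAIL1* values, 4 lay below every Control value. The means were 146 ± 12 and 127 ± 12.7 CPM (SD, n = 6 each), and the log2 fold change of -0.19 (95% interval -0.35 to -0.031) did not pass the threshold over all genes (adjusted p = 0.118, edgeR).

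*Osmr*, which encodes the oncostatin M receptor chain, had a similar difference at a lower level. It ranged from 11.5 to 15.7 CPM in Control muscles (median 12.6) and from 10.6 to 13.1 CPM in *FRAIL1* muscles (median 11.3), and 4 *FRAIL1* values lay below every Control value. The log2 fold change was -0.20 (95% interval -0.39 to -0.0098), and edgeR gave an adjusted p = 0.162. *Il6st* and *Osmr* are thus among the genes whose interval, taken alone, lay below 0 and whose adjusted p-value missed the threshold.

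*Cntfr*, which encodes the alpha chain that lends specificity for CNTF and CLCF1 and has no signaling domain of its own, had the largest coefficient of variation of the members in Control muscles. In Control muscles 1 to 6 it measured 56.9, 21.7, 20.6, 14.7, 44.4 and 18.1 CPM, and in *FRAIL1* muscles 1 to 6 it measured 32.3, 20.2, 23.3, 14.3, 14.7 and 11 CPM. Control muscles 1 and 5 were high, the other 4 lay between 14.7 and 21.7 CPM, and 3 *FRAIL1* muscles lay below every Control muscle. That coefficient was 58.2%, against 40.2% in *FRAIL1* muscles, and the log2 fold change was -0.61 (95% interval -1.42 to 0.21; adjusted p = 0.312, edgeR), so the interval includes a fall larger than that of *Lifr* as well as no change.

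*Il6ra*, the gene of the IL-6 binding chain, ranged from 3.88 to 6.60 CPM in Control muscles (median 4.92) and from 3.99 to 6.84 CPM in *FRAIL1* muscles (median 5.56). The groups overlapped, with a log2 fold change of 0.14 (95% interval -0.21 to 0.48; adjusted p = 0.622, edgeR). An antisense gene, *Gm42809*, overlaps 2.80% of the exon bases of *Il6ra*, and the sources do not say whether counting used strand.

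Downstream of the receptors, *Stat3* mRNA did not pass the threshold. In Control muscles 1 to 6 it measured 145, 93.6, 129, 135, 149 and 102 CPM, and in *FRAIL1* muscles 1 to 6 it measured 111, 107, 91.1, 113, 95 and 108 CPM. Of the Control muscles, 4 lay above all *FRAIL1* muscles, whereas Control muscles 2 and 6 lay within the *FRAIL1* range. The means were 125 ± 22.8 and 104 ± 9.09 CPM (SD, n = 6 each), and the log2 fold change was -0.27 (95% interval -0.50 to -0.035; adjusted p = 0.129, edgeR). STAT3 acts once phosphorylated, and phosphorylation is not seen in mRNA counts.

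*Socs3*, a transcriptional target of STAT3 and inhibitor of gp130 signaling, measured 11.7, 6.16, 8.11, 10.9, 7.12 and 5.46 CPM in Control muscles 1 to 6. In *FRAIL1* muscles 1 to 6 it measured 8.8, 5.68, 5.19, 8.41, 8.21 and 7.88 CPM. Control muscles 1 and 4 were highest, and the ranges otherwise lay over each other. On the log2 scale the difference was -0.16 (95% interval -0.58 to 0.26; adjusted p = 0.624, edgeR).

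**Figure D2:**
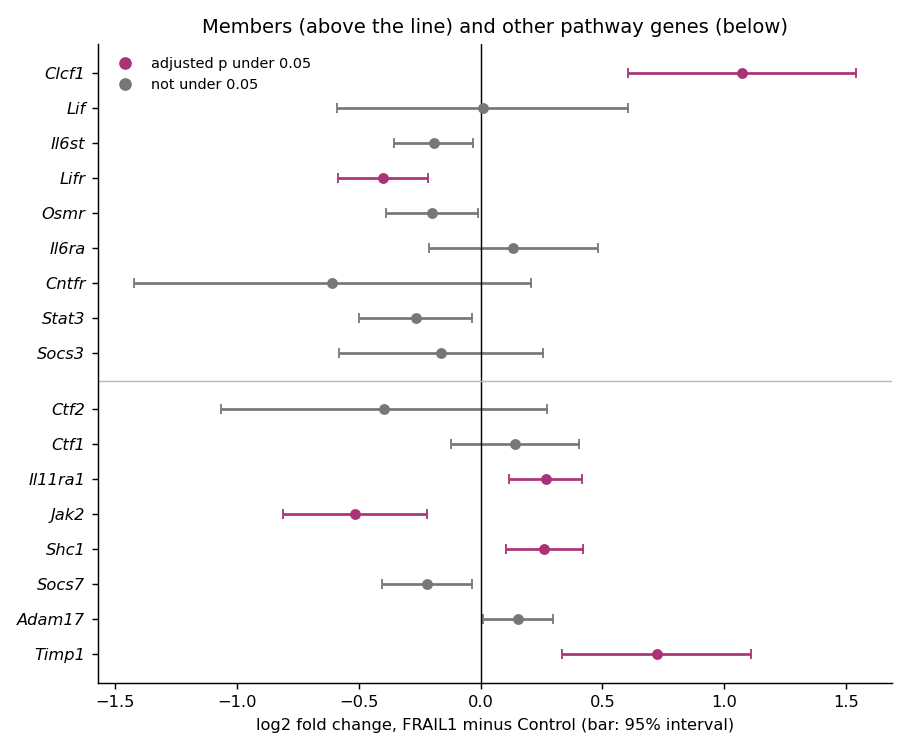
Log2 fold change of *FRAIL1* minus Control with its 95% interval from edgeR, for the 9 IL-6 family genes tested (above the line) and 8 genes of the other pathway lists (below), in purple where the adjusted p-value was under 0.05. *Clcf1* at 1.07 and *Lifr* at -0.40 are the purple members, and the interval of *Cntfr* is the widest among the grey members.

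Per kilobase of exon, *Stat3* and *Il6st* were the most abundant of the 10 genes in Control muscles, at 13.2 ± 2.39 and 13.1 ± 1.08 CPM per kb (SD, n = 6 each). *Cntfr* followed at 10.6 ± 6.15, *Lifr* at 5.23 ± 0.296, *Socs3* at 2.85 ± 0.873, *Osmr* at 1.10 ± 0.149 and *Il6ra* at 0.591 ± 0.137 CPM per kb. The ligand genes were lowest, with *Clcf1* at 0.209 ± 0.0363, *Lif* at 0.192 ± 0.0744 and *Il6* at 0.0722 ± 0.0388 CPM per kb. Neighbors in this order overlapped in their range over muscles from *Stat3* down to *Lifr* and from *Clcf1* down to *Il6*. From *Lifr* through *Socs3*, *Osmr* and *Il6ra* down to *Clcf1*, the range of each gene lay apart from that of the next. In *FRAIL1* muscles *Clcf1* measured 0.443 ± 0.131 and *Lifr* 3.96 ± 0.569 CPM per kb (SD, n = 6 each), so the order of these 2 genes among the members was as in Control muscles.

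**Figure D3:**
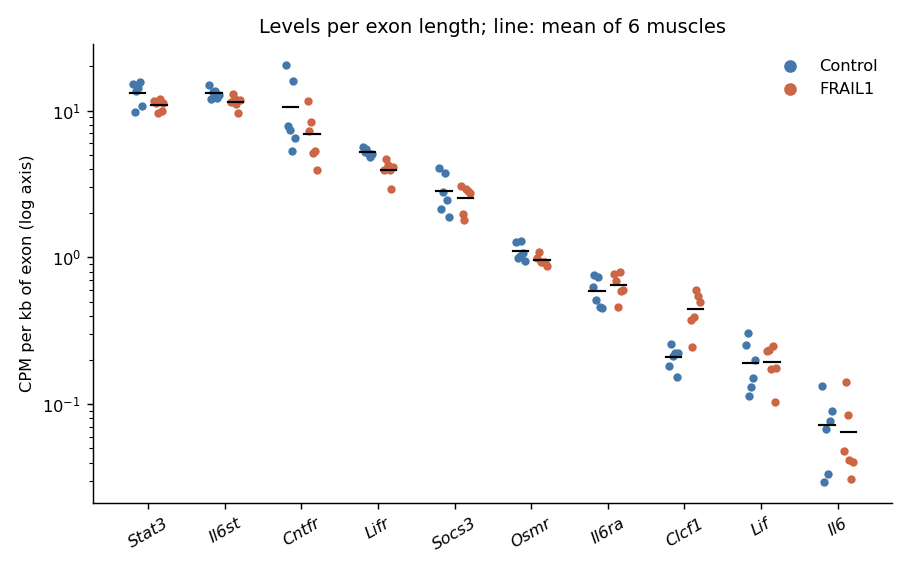
Level per kilobase of merged exon length, on a log axis, in Control (blue) and *FRAIL1* (orange) muscles, with the mean of 6 muscles as a line, ordered by the Control mean. The 3 ligand genes lie below every receptor gene in Control muscles, and *Clcf1* is the gene with a visible rise.

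Within groups, the members varied together in part. Over the 12 muscles, deviations of log2 CPM from the group mean correlated most between *Il6st* and *Lifr*, the genes of the chains that signal as a pair (r = 0.878, and 0.812 over the 11 muscles without *FRAIL1* muscle 5). *Stat3* and its target *Socs3* followed (r = 0.670, and 0.726 without that muscle), then *Il6st* and *Osmr* (r = 0.603, and 0.703 without it). The deviations of *Clcf1* ran against those of *Cntfr* (r = -0.60, and -0.59 without that muscle) and *Il6st* (r = -0.59, and -0.53 without it). These are descriptions, not tests, over muscles that share their library scaling and come from both legs of the same mice. Genes that are not members followed *Lifr* more closely than *Il6st* did, as given next.

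Of all genes tested, *Kat8* (r = 0.977), *Stat5b* (r = 0.97) and *Nrd1* (r = 0.973) deviated most like *Lifr*. Without *FRAIL1* muscle 5 the same values were 0.928, 0.923 and 0.915. *Stat5b*, a signal transducer of growth hormone, measured 227 CPM in Control and 173 CPM in *FRAIL1* muscles (adjusted p = 0.0684, edgeR). The log2 fold changes of *Kat8*, *Stat5b* and *Nrd1* were -0.15, -0.39 and -0.20, all below 0 as for *Lifr*, and none passed the threshold. The genes that deviated most like *Clcf1* were *Sfn* (r = 0.938), *Eppk1* (r = 0.917) and *Pcdhgb6* (r = 0.867), and 0.935, 0.912 and 0.877 without that muscle. Their log2 fold changes were 0.30, -0.25 and -0.35, with adjusted p-values of 0.208, 0.791 and 0.212 in edgeR.

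The rest of the pathway was described with 75 further genes in 5 lists, of which 69 were tested. In total 3 were higher and 1 was lower with an adjusted p-value under 0.05, 5.8% of those tested beside 6.28% of all genes, and their median log2 fold change was 0.062. These shares depended on the fit. They were 23.2% beside 14.1% with a block for the replicate number, and 18.8% beside 14.4% with DESeq2. DESeq2 with that block gave 24.6% beside 18.7%, and limma voom 15.9% beside 11.3%. An edgeR fit that was not robust gave 4.35% beside 6.73%.

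None of the 6 tested genes of other ligands passed the threshold (0 of 6 also at an unadjusted p under 0.05 in edgeR), with a median log2 fold change of 0.11. *Ctf1*, the gene of cardiotrophin-1, measured 5.90 ± 0.949 and 6.50 ± 0.902 CPM (SD, n = 6 each; adjusted p = 0.481). *Ctf2* measured 0.318 ± 0.0603 and 0.242 ± 0.104 CPM (SD, n = 6 each; adjusted p = 0.435). *Cntf*, *Il11* and *Il31* did not pass the expression filter.

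Of the 3 genes of other receptors, 2 were tested and *Il11ra1*, the gene of the interleukin-11 receptor alpha chain, was higher in *FRAIL1* muscles. The means were 28.8 ± 2.25 and 34.7 ± 3.28 CPM (SD, n = 6 each), with 4 *FRAIL1* values above every Control value. On the log2 scale it rose by 0.27 (standard error 0.0701; adjusted p = 0.0380, edgeR). Because 99.0% of its transcript is shared with *Gm13305* at 98% identity or more, uniquely mapped reads give this value as uncertain.

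Among 14 genes of Janus kinases, other STATs and adaptors, *Jak2* was lower and *Shc1* was higher, and the median log2 fold change was -0.11. These calls were 14.3% of the list, beside 6.28% of all genes tested. An unadjusted p under 0.05 in edgeR was reached by 7 of 14, beside 27.7% of all genes. The log2 fold change was above 0 for 5 of the 14 and below 0 for 9. *Jak2*, a kinase bound to gp130 and other cytokine receptors, measured 98.8, 85.1, 84.5, 77.6, 74.6 and 68.5 CPM in Control muscles 1 to 6. In *FRAIL1* muscles 1 to 6 it measured 59.4, 66.8, 66.5, 61.1, 35 and 53.9 CPM, and every *FRAIL1* value lay below every Control value, with *FRAIL1* muscle 5 lowest. On the log2 scale it fell by 0.51 (standard error 0.137; adjusted p = 0.0445, edgeR), and without *FRAIL1* muscle 5 it fell by 0.41 (adjusted p = 0.0120). *Shc1*, an adaptor to the Ras pathway, measured 31.6 ± 1.2 and 37.9 ± 5.05 CPM (SD, n = 6 each) without overlap between groups. The change was 0.26 on the log2 scale (standard error 0.0747; adjusted p = 0.049974, edgeR). A stretch of 28.3% of its transcript is shared with AC123951.1.

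The 15 genes of inhibitors and of receptor shedding had no call in edgeR (3 of 15 at an unadjusted p under 0.05), and a median log2 fold change of -0.00074. *Socs7* measured 103 ± 11.9 and 88.3 ± 9.73 CPM (SD, n = 6 each; adjusted p = 0.120). *Adam17*, the gene of a protease that sheds the IL-6 receptor, measured 31.6 ± 2.10 and 35.2 ± 3.23 CPM (SD, n = 6 each; adjusted p = 0.152).

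Of 34 genes known as STAT3 targets, 32 were tested and *Timp1* alone passed the threshold, with a median log2 fold change of 0.11 over the list. That was 3.12% of those tested, beside 6.28% of all genes. At an unadjusted p under 0.05 in edgeR there were 9 of 32, beside 27.7% of all genes. *Timp1*, an inhibitor of matrix metalloproteinases, measured 4.38, 3.61, 4.47, 6.66, 3.57 and 3.82 CPM in Control muscles 1 to 6. It measured 7.22, 5.39, 5.55, 8.88, 9.98 and 6.78 CPM in *FRAIL1* muscles 1 to 6, of which 4 lay above every Control muscle. The rise was 0.72 on the log2 scale (standard error 0.182; adjusted p = 0.0339, edgeR), and 0.61 without *FRAIL1* muscle 5 (adjusted p = 0.0474). *Fgb* had no read in any muscle, and *Saa1* did not pass the expression filter.

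**Figure D4:**
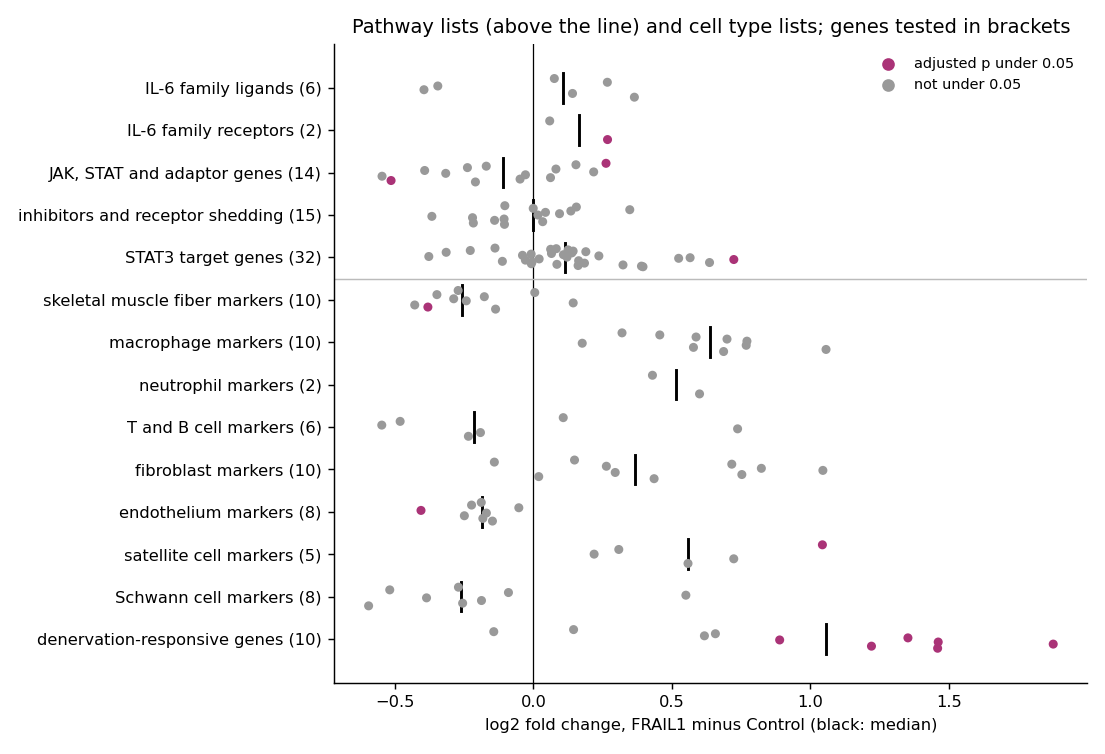
Log2 fold change of *FRAIL1* minus Control for each tested gene of 5 pathway lists (above the line) and 9 lists of cell type and denervation genes (below), with the median in black and genes with an adjusted p-value under 0.05 in purple. The pathway lists lie around 0 with 4 purple genes, and the denervation list lies farthest from 0, with a median of 1.05.

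The DNA motif of STAT dimers, TTCNNNGAA, which reads the same on both strands, was searched in the 250 bases before the start of each transcript in RefSeq (GRCm38.p6). It was found in 7.02% of 32851 promoters. Of 15 promoters of 9 members 1 held it, that of *Socs3*, and for *Clcf1* no promoter was searched. Among the STAT3 targets it was found in 5 of 34 promoters, for 5 of 28 genes. No promoter was searched for the listed targets *Myc*, *Cebpd*, *Ccnd1*, *Hp*, *Lbp* and *Tgm2*. The matches are shown because they are the places where these promoters hold the letters of the motif, with the motif in capitals and the strand of the gene from 5′ to 3′.
Socs3, chr11:117969502-117969530, minus strand: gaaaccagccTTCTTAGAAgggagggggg
Icam1, chr9:21015888-21015916, plus strand: ggcgcgaggtTTCCCGGAAagtggccccg
Fgl2, chr5:21372627-21372655, plus strand: gcccgcccttTTCTGGGAActcagaacgc
Zfp36, chr7:28379229-28379255, minus strand: acagcctgacTTCTGCGAAccgacagt
Tnfrsf1a, chr6:125349473-125349497, plus strand: gcttccTTCCGTGAAattgacaaca
Fgb, chr3:83050007-83050035, minus strand: gactcaatgaTTCGAGGAAccccctgtgt

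The *Socs3* match lies 154 to 146 bases before the transcript start that was searched. It also lies inside the span of the gene, 117966079 to 117970336, so that start is not the outermost one. None of the 6 genes with a match was among the genes with a call, but *Fgb*, without a read, was not tested. Calls were made for 6.28% of all genes tested, so their absence among so few genes says nothing about the motif. *Timp1*, which had a call, was without a match in this window. A match is a description of letters and was not tested as a binding site.

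Genes of other cell types are given beside *Clcf1* and *Lifr*. The 10 macrophage genes were all tested and had log2 fold changes above 0 (median 0.64) with no call in edgeR (7 of 10 at an unadjusted p under 0.05), and their summed level was 235 to 378 CPM in Control and 292 to 760 CPM in *FRAIL1* muscles. The 10 fibroblast genes had no call either (5 at an unadjusted p under 0.05), with a summed level of 1009 to 1895 and 2010 to 5077 CPM, and without *FRAIL1* muscle 5 the latter reached 2461 CPM. Of the 10 genes that respond to denervation 6 were higher, among them those of acetylcholine receptor subunits (*Chrna1*, *Chrnd* and *Chrng*), with a median log2 fold change of 1.05 and a summed level of 95.3 to 142 and 203 to 353 CPM. Of 5 satellite cell genes 1, *Fgfr4*, was higher (median 0.56; summed level 11.7 to 22.1 and 20.9 to 44.5 CPM, the latter up to 29.5 CPM without *FRAIL1* muscle 5).

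In the direction of *Lifr*, the 8 endothelial genes were all below 0, with 1 call, *Tek*, and a median of -0.19 (summed level 483 to 584 and 394 to 504 CPM). The 10 fiber genes had a median of -0.26 with 1 call, *Ckm*, which was lower, and the 8 Schwann cell genes a median of -0.26 with no call (3 at an unadjusted p under 0.05 in edgeR; summed level 91.7 to 162 and 78.2 to 118 CPM). Of 7 neutrophil genes 2 were tested and of 7 lymphocyte genes 6, with no call and none at an unadjusted p under 0.05 in edgeR (medians 0.51 and -0.21; summed levels 2.24 to 8.38 and 3.65 to 9.38 CPM, and 4.82 to 10.2 and 4.68 to 11.1 CPM). No marker of these lists was at 0 in every muscle. The genes named from these lists were chosen after their values were seen. The part of these cell types in the differences of *Clcf1* and *Lifr* was not tested.

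**Figure D5:**
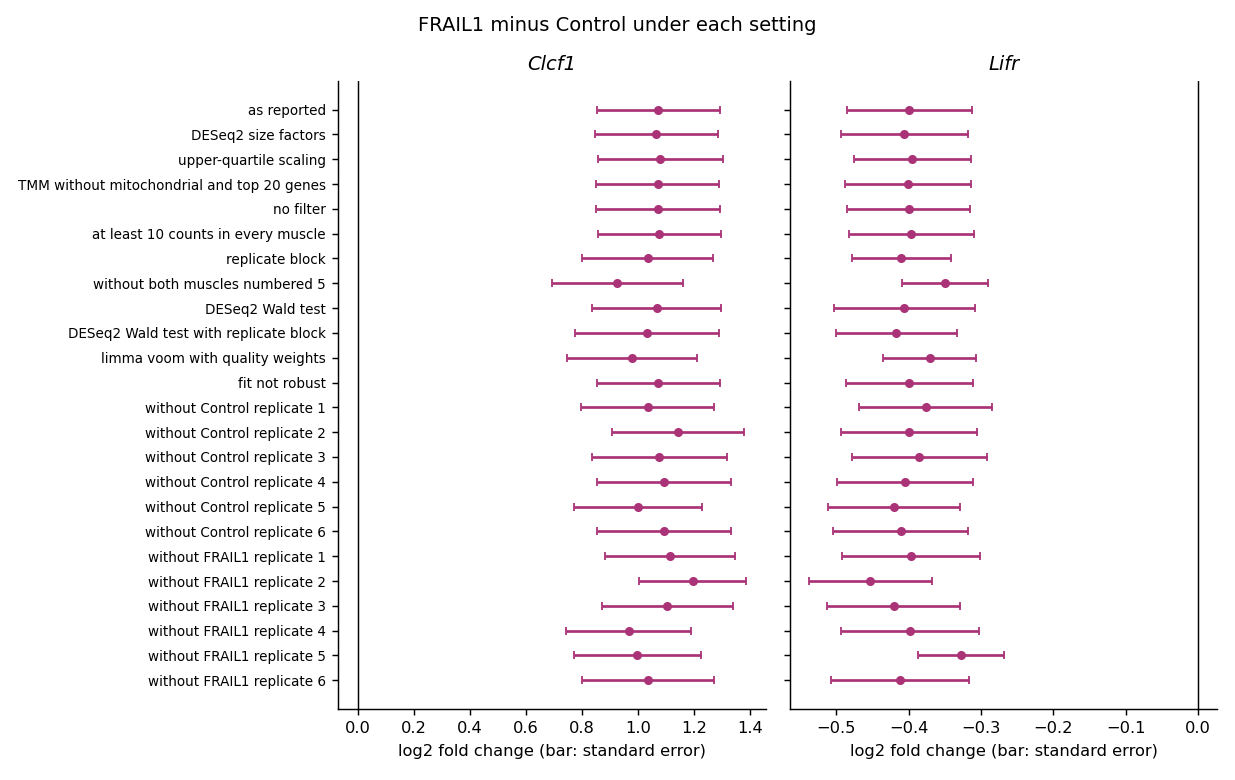
Log2 fold change with its standard error for *Clcf1* (left) and *Lifr* (right) under the reported setting and 23 alternatives, listed on the vertical axis. *Clcf1* stayed between 0.93 and 1.2 and *Lifr* between -0.45 and -0.33, and the adjusted p-value was under 0.05 in each.

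The calls of *Clcf1* and *Lifr* were made under all 23 alternatives run, with adjusted p-values up to 0.0403 for *Clcf1* and up to 0.0475 for *Lifr*. The calls of the other 4 pathway genes were lost in most fits with 1 muscle fewer, in which the number of calls over all genes also moved, to between 364 and 2110 from 974. When each of the 12 muscles was left out in turn, *Il11ra1* passed the threshold in 3 fits, *Jak2* in 4, *Shc1* in 3 and *Timp1* in 4, and the adjusted p-values reached 0.0833, 0.0923, 0.0990 and 0.0733. Their log2 fold changes kept their direction in these fits, at 0.22 to 0.31 for *Il11ra1*, -0.57 to -0.41 for *Jak2*, 0.18 to 0.29 for *Shc1* and 0.61 to 0.88 for *Timp1*. All 4 passed without *FRAIL1* muscle 2 and without *FRAIL1* muscle 3. Beyond these, *Il11ra1* passed without Control muscle 6, *Jak2* without Control muscle 6 or *FRAIL1* muscle 5, *Shc1* without *FRAIL1* muscle 5, and *Timp1* without Control muscle 4 or *FRAIL1* muscle 5. *Shc1* also missed the threshold under 6 of the 11 other alternatives, those of scaling among them, whereas the other alternatives ended the call of *Jak2* with no filter and those of *Il11ra1* and *Timp1* without both muscles numbered 5.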

How the data were processed

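RNA-seq was made from poly(A) RNA of 12 TA muscles. According to the labels and the study's methods, Trimmomatic removed adaptors, STAR 2.7.8a mapped the reads to mm10 and featureCounts 2.0.1 counted them per gene. The authors deposited raw counts, as whole reads that were not normalized. Whether counting used strand is not given in the sources used here. Of the 27179 Gene IDs, 25275 matched a symbol in GRCm38, and those without a match took 0.280% of counts. No per-sample column was left unused.

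Groups came from the labels. Genes were filtered with filterByExpr, scaled with TMM and tested by quasi-likelihood in edgeR 4.0.16 (robust, R 4.3.3), with Benjamini-Hochberg adjustment over all 15502 tested genes and a threshold of 0.05. *Il6*, below the filter, was compared by an exact permutation test. No libraries were copies (lowest chi-square per degree of freedom within a group 14.5). The 6 muscles of a group come from 6 mice, and the spread between them is the error given. The reported fit has no term for the mouse.

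The members and lists were chosen with earlier results of these data known. Named were all members, the up to 4 called genes of each list with the smallest adjusted p (otherwise the 2 with the smallest p) and the 3 genes most correlated with each called member. Alternatives were other scalings and filters, a replicate block, DESeq2 1.42.0, limma 3.58.1 (voom), a fit that was not robust, and leaving out each muscle or both muscles numbered 5. Transcript copies were searched at 98% identity over at least 100 bases. The values of 1 listed gene are not reported here.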

Additional observations from a re-analysis of the deposited data

Results flagged for a closer look

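In 36 groups of 6 muscles (the listed genes named in the text, the members and both conditions), 2 had 1 muscle far from the others by Dixon's criterion, where chance gives about 1 in 20, or 1.80 groups. *Shc1* measured 47.7 CPM in *FRAIL1* muscle 5, and the other *FRAIL1* muscles lay between 34.4 and 38.8 CPM. Without that muscle its log2 fold change was 0.18, and edgeR gave an adjusted p = 0.0402. *Timp1* measured 6.66 CPM in Control muscle 4, and the other Control muscles lay between 3.57 and 4.47 CPM.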

How the results depend on the processing

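Under 23 alternatives the number of members with a call was 2 each time, *Clcf1* and *Lifr*. The number of called genes over all genes was 974. It moved to 2186 with the replicate block, 2232 with DESeq2, 2898 with DESeq2 and the replicate block, and 1756 with limma voom, and lay between 364 (without *FRAIL1* muscle 1) and 2110 (without *FRAIL1* muscle 3) when 1 muscle was left out. Called pathway genes numbered 4. There were 16 with the replicate block, 13 with DESeq2, 17 with DESeq2 and the replicate block, 11 with limma voom, 2 with no filter, 2 without both muscles numbered 5, and between 0 (7 muscles of 12) and 14 when 1 muscle was left out. The block fit gave 1.03 for *Clcf1* and -0.41 for *Lifr* (adjusted p = 0.0184 and 0.00769, edgeR). Same-numbered muscles correlated in their deviations from the group means (0.237, 0.155, 0.265, 0.245, 0.0503 and 0.177 for numbers 1 to 6), and those of every number but 5 correlated best with their own number. No label states that a number marks a mouse, so the reported fit did not treat the muscles as pairs. The groups are opposite legs of the same mice, so that fit leaves out a pairing that the design has. *Lif*, at 0.0084 as reported, was below 0 when 1 of 6 muscles was left out (-0.10, -0.082, -0.051, -0.046, -0.056 and -0.077), over a range of -0.10 to 0.19 for all 12. The *Il6* difference of -0.018 CPM lay between -0.056 and 0.012 CPM when 1 muscle was left out, above 0 without Control muscle 1. The share of higher among all calls was 70.5% as reported, 63.7% with upper-quartile scaling, 53.0% with the replicate block, 57.4% with DESeq2, 50.9% with DESeq2 and the block, 53.7% with limma voom, 55.1% without both muscles numbered 5, and 86.3% without *FRAIL1* muscle 1. The called share of pathway genes, 5.8% beside 6.28% of all genes as reported, was 23.2% beside 14.1% with the replicate block and 18.8% beside 14.4% with DESeq2. *Il6*, *Lif* and *Clcf1* rest on the fewest reads, 4 to 113 per muscle.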
